A study of Rattus norvegicus with 9 samples.

Results

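The mid-myocardium of the rat left ventricle was compared with the endocardium, layer against layer within the same hearts. The 6 libraries compared, of 9 in the series, were chosen by their labels alone: mid-myocardium and endocardium of hearts 6, 7 and 8. All came from male Sprague-Dawley rats aged 8 months, with 1 rat for each heart number. The free wall had been cut roughly a millimetre in from each surface, so every layer was bulk tissue and not a sorted cell type, and a lower level of a miRNA can mean fewer cells of a type or less RNA per cell, which cannot be told apart. Of 2182 miRNA entries in the annotated reads, 438 reached 10 reads in some library among these 6 and were tested, of which 276 were rat entries and 162 entries of other species. Small RNA had been sequenced, and levels are in RPMM, the reads of a miRNA scaled to the library's total of reads annotated to any miRNA. No miRNA is known to define either layer, so the layer labels could not be checked against markers.

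miRNAs are short RNAs that guide the silencing complex to messenger RNAs, mainly through the seed, nts 2 to 8 counted from the 5′ end. Each hairpin can give a miRNA from either arm, and * marks the arm first described as the minor one. Reads that differ from the reference mature sequence at an end are called isomiRs, and a shift at the 5′ end changes the seed. Heart muscle cells are rich in miR-1, miR-133a, miR-208 and miR-499, vascular smooth muscle in miR-143 and miR-145, and endothelium in miR-126, while miR-451 is abundant in red cells and miR-486 in muscle and red cells.

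The sequences below are examples of reads behind the values that follow, as deposited by the authors, with the seed in capitals. The first 4 are the commonest read of a miRNA that differed in the same direction in all 3 hearts, miR-26a among them as one of the 10 most abundant, and the last 3 are single reads that stood out when each sequence was compared on its own.
miR-499: tTAAGACTtgcagtgatgttt
miR-26a: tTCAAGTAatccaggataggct
miR-423*: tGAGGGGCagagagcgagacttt
Homo sapiens miR-1260a: aTCCCACCgctgccacca
miR-23b, shortened read: aTCACATTgccagggattac
miR-181a, read of 21 nts: cATTCAACgctgtcggtgagt
miR-181a, read of 20 nts: cATTCAACgctgtcggtgag
Of 249 tested miRNAs whose exact mature sequence was among the reads, 206 matched a RefSeq rat mature sequence (build GRCr8). In that build miR-499 lies at chr3:164570616-164570636 on the plus strand, miR-26a at chr8:127633063-127633084 on the plus strand and miR-423* at chr10:62412317-62412340 on the minus strand.

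Annotated reads ran from 283991 to 1052663 in mid-myocardium and from 711437 to 1428025 in endocardium. The shallowest library was mid-myocardium of heart 6, in which 3 reads amount to 10.6 RPMM. The 10 most abundant miRNAs held 68.9% ± 1.47 (SD, n = 3) of annotated reads in mid-myocardium and 68.6% ± 2.0 in endocardium. Endocardium of heart 7 stood apart from the other 5 libraries, with rat entries at 73.8% of its reads against 82.4% to 86.1%. That library also held the most miR-486, which is filed under other species, and without the miR-486 reads its rat share was 95.6% against 94.9% to 97.1%.

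No miRNA passed the test between the layers. With limma on log2(RPMM + 1), heart as a block and a Benjamini-Hochberg threshold of 0.05, 0 of 438 were called (0%), and the smallest adjusted p was 0.648. At an unadjusted p under 0.05 there were 27 (6.16%), 19 of them higher and 8 lower in mid-myocardium. By edgeR and DESeq2 0 were called too, with 35 and 17 at an unadjusted p under 0.05. The log2 difference was above 0 for 230 miRNAs (52.5%) and below 0 for 208 (47.5%), with a median of 0.03.

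The 95% interval of the difference lay inside a 2-fold change either way for 156 of the 438, and for 93 of the 169 with a mean of 100 RPMM or more. For the other miRNAs the interval did not exclude a 2-fold difference. Only 3 of those 169 had an estimate beyond 2-fold. In all 3 hearts 72 miRNAs (16.4%) were higher in mid-myocardium and 67 (15.3%) lower, and the libraries of the layers did not overlap for 23 (5.25%) that were higher and 21 (4.79%) that were lower.

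**Figure D1:**
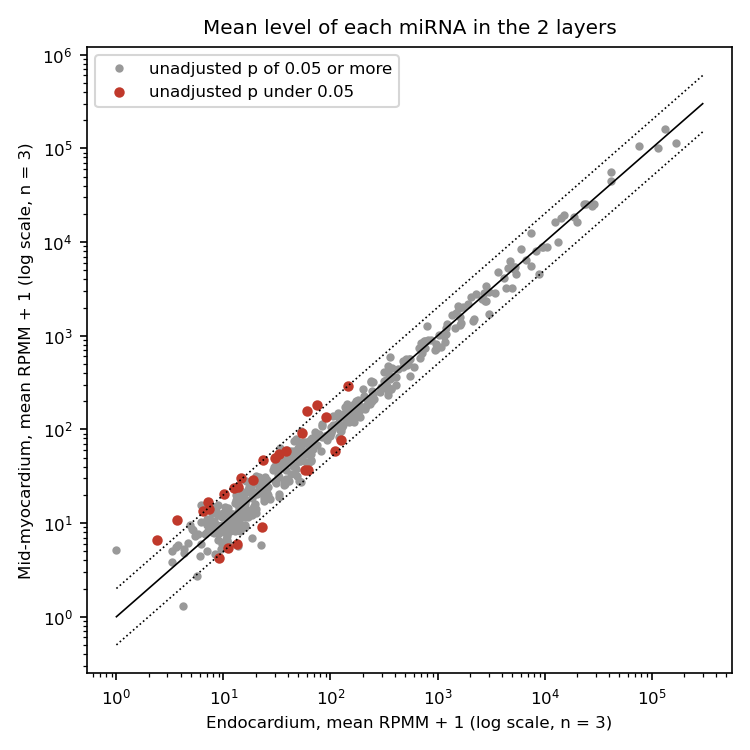
Mean RPMM + 1 of each of the 438 miRNAs in endocardium (x axis) and mid-myocardium (y axis), both on log scales, n = 3 hearts. The solid line marks equal levels and the dotted lines a 2-fold difference; the 27 points in red had an unadjusted p under 0.05, and 0 passed after adjustment.

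Of the 20 muscle entries tested, 13 were higher and 7 lower in mid-myocardium, beside 52.5% and 47.5% of all miRNAs, and 0 passed the test. Only 10 were rat entries, and the others were entries of miR-1, miR-133a and miR-486 filed under other species. Because 1 miRNA can fill several entries, entries in this and the later lists are not independent of each other. miR-133a, miR-1, miR-499 and miR-208, which heart muscle cells are rich in, were higher in each heart, while miR-208b, miR-208* and miR-499* were not. miR-133a, which restrains growth and electrical remodelling of heart muscle, stood at 96757, 94844 and 130151 RPMM in mid-myocardium of hearts 6, 7 and 8 and at 83861, 53982 and 92964 in endocardium. All 3 mid-myocardium libraries were above all 3 endocardium libraries. The log2 difference was 0.50 (SE 0.24, adjusted p = 0.648 by limma).

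miR-499, which lies in an intron of a myosin heavy chain gene, had 954, 1297 and 1535 RPMM in mid-myocardium and 784, 539 and 1089 in endocardium, a log2 difference of 0.68 (95% interval -0.10 to 1.46). miR-208, of the alpha myosin heavy chain gene, had 306, 508 and 968 RPMM against 301, 243 and 535, a log2 difference of 0.65. In heart 6 the layers were nearly level for miR-208, and for both miRNAs the groups overlapped. miR-1, the other abundant miRNA of heart and skeletal muscle, had 4377, 4121 and 5851 RPMM against 2664, 3517 and 4944, with a log2 difference of 0.40. The minor arm miR-133a* had a log2 difference of 0.45. miR-208b, of the beta myosin heavy chain gene, had 2673, 2946 and 1806 RPMM against 3601, 2092 and 2184, a log2 difference of -0.07, and was higher in mid-myocardium in 1 heart. The minor arms miR-499* and miR-208* had log2 differences of -0.33 and 0.0058 and were also higher in 1 heart. miR-499* had a mean of only 16.7 RPMM over the 6 libraries, near the level of a few reads. Without heart 7 the log2 difference of miR-499 was 0.39, and without heart 6 that of miR-1 was 0.24.

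miR-486 pointed the other way. It was the second most abundant miRNA, and nearly all its reads were filed under the Bos taurus entry, which had 132201, 120587 and 89728 RPMM in mid-myocardium and 142944, 220673 and 144092 in endocardium. The layers did not overlap, with heart 7 the furthest apart and heart 6 close. The log2 difference was -0.56 (SE 0.26, adjusted p = 0.648 by limma), and summed over the 8 entries of all species it was also -0.56. Because miR-486 took so many reads, it bears on the level of every other miRNA in RPMM, and scaling without it moved the median difference of all miRNAs from 0.03 to -0.07. Mus musculus miR-3107, an entry whose reads share the miR-486 sequence, had 70.4, 86.3 and 73.1 RPMM against 105, 168 and 100, a log2 difference of -0.66. miR-451, the red cell miRNA, had 627, 890 and 693 RPMM in mid-myocardium and 732, 509 and 758 in endocardium, a log2 difference of 0.15, and was higher in 1 heart. The less abundant miR-144 was higher in all 3 hearts with a log2 difference of 0.66, or 0.37 without heart 7.

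The 20 muscle entries had a median log2 difference of 0.23, beside 0.03 over all 438. The 7 that were higher in all 3 hearts, beside 16.4% of all miRNAs, were entries of miR-1, miR-133, miR-208 and miR-499. The 5 that were lower in all 3, beside 15.3%, were entries of miR-486.

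**Figure D2:**
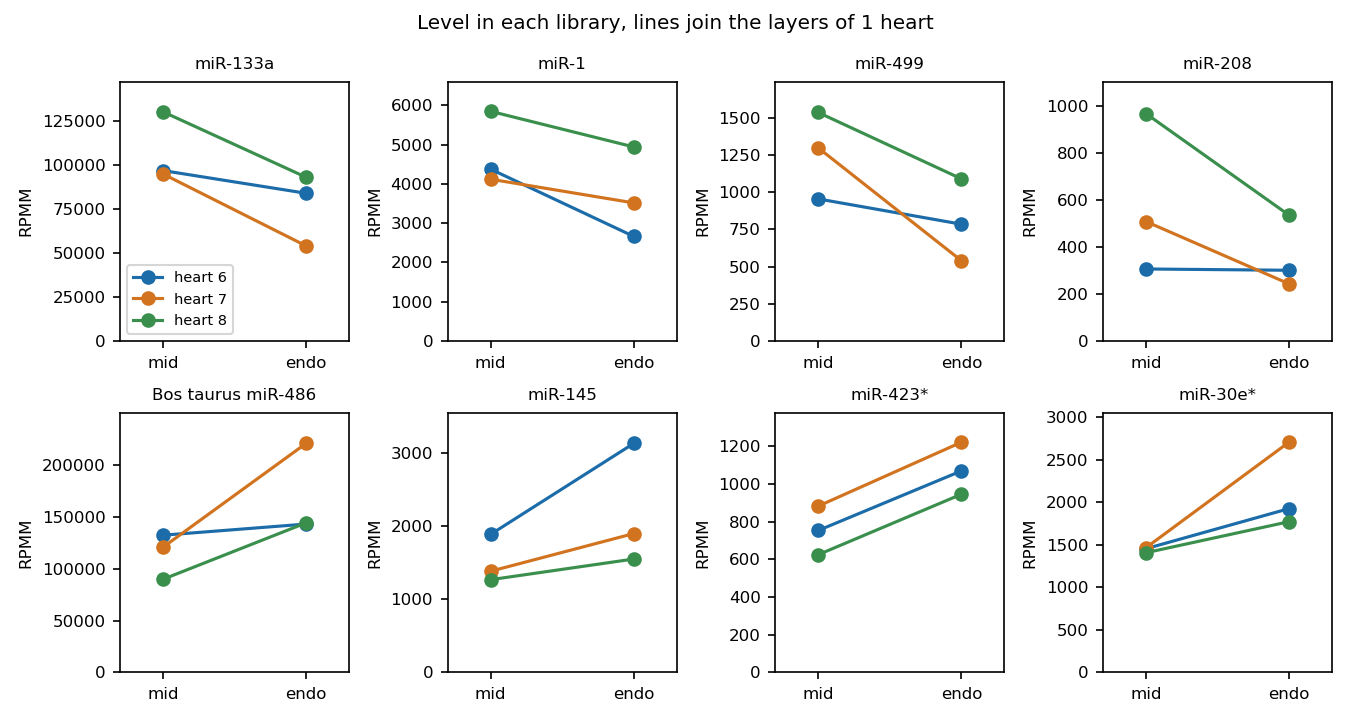
RPMM (linear axis from 0) of 8 miRNAs in mid-myocardium (mid) and endocardium (endo), with 1 line for each heart. The 4 muscle miRNAs in the upper row were higher in mid-myocardium in all 3 hearts and the 4 miRNAs in the lower row were lower in all 3; none passed the test.

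The 2 main smooth muscle miRNAs were lower in mid-myocardium in each heart, by amounts that did not pass the test, and their minor arms were not. miR-145, which keeps vascular smooth muscle contractile, had 1884, 1381 and 1265 RPMM in mid-myocardium and 3125, 1894 and 1547 in endocardium, a log2 difference of -0.49. Its cluster partner miR-143 was lower in all 3 hearts as well, by a smaller log2 difference of -0.18 (95% interval -0.75 to 0.39). The minor arm miR-143* was higher in all 3 hearts with a log2 difference of 0.65, and miR-145* had one of 0.15. miR-143* had a mean of only 19.4 RPMM over the 6 libraries, where 3 reads are 10.6 RPMM in mid-myocardium of heart 6. Of the 8 entries of both miRNAs, 6 were lower, beside 47.5% of all miRNAs, and 4 were lower in all 3 hearts, beside 15.3%. Only 4 of the 8 were rat entries, with the main arms lower and the minor arms higher. The others were reads of the same miRNAs filed under other species, at means of 3.16 to 14.3 RPMM. The 8 entries are therefore not independent. Of the 8, 1 had an unadjusted p under 0.05, beside 6.16% of all miRNAs.

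Markers of other cell types differed in both directions. miR-126, an endothelial miRNA that promotes vessel growth, had 6377, 6187 and 6199 RPMM in mid-myocardium and 5646, 3285 and 5324 in endocardium without overlap, a log2 difference of 0.44. Most of it came from heart 7, whose endocardium library stood apart, and without that heart it was 0.20. The other arm, miR-126*, was more abundant, at a mean of 8168 RPMM over the 6 libraries against 5503 for miR-126. Its log2 difference was -0.09. miR-92a-1, of the miR-17 cluster and also found in endothelium, was lower in all 3 hearts with a log2 difference of -0.27. Of 9 endothelial entries 3 were higher and 6 lower.

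miR-29a, which represses collagen and other matrix genes, had 7363, 7905 and 9754 RPMM in mid-myocardium and 7232, 3980 and 7014 in endocardium. The layers did not overlap, although in heart 6 they were nearly level, and the log2 difference was 0.50, or 0.25 without heart 7. miR-199a had a log2 difference of 0.39, or 0.073 without heart 7. Reads with one seed, not that of its mature sequence, had a mean of 1663 RPMM, beside 2340 for the whole entry. Of these reads 99.7% were miR-199a, and their log2 difference was 0.49. The exact mature sequence of miR-199a had one of -0.52, so the value of the entry is not that of its named arm. miR-21, which is abundant in fibroblasts, had a log2 difference of 0.05 (95% interval -0.57 to 0.67). Among leukocyte miRNAs, miR-150 had a log2 difference of -0.11, and of 8 entries 5 were higher and 3 lower. The part that cell composition played in these values was not tested.

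Among the remaining abundant miRNAs, miR-26a had 54604, 50377 and 63126 RPMM in mid-myocardium and 45578, 33161 and 47617 in endocardium. The layers did not overlap and the log2 difference was 0.42. miR-22, the most abundant miRNA, had a log2 difference of 0.27 and was higher in mid-myocardium in 2 hearts. Differences were smaller for miR-30a (0.08), miR-30d (0.12), miR-27b (0.04), miR-378 (-0.15) and miR-181a (-0.23).

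**Figure D3:**
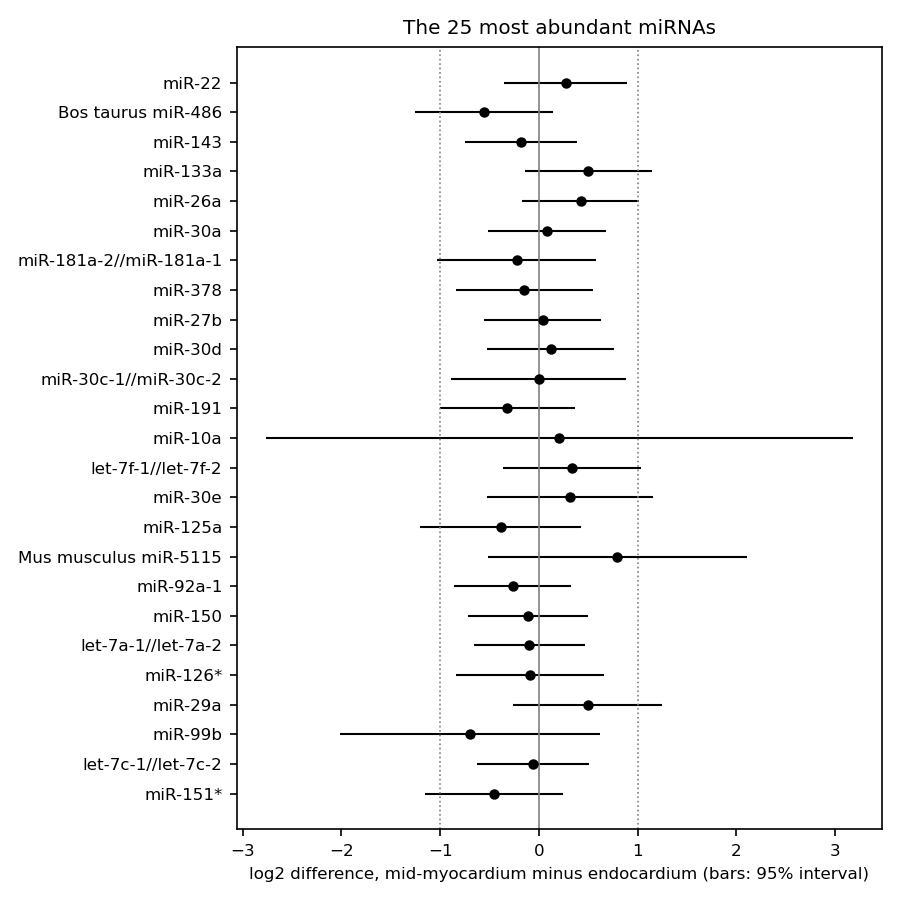
Log2 difference, mid-myocardium minus endocardium, of the 25 most abundant miRNAs (points) with 95% intervals from limma (bars). The solid line marks no difference and the dotted lines 2-fold; miR-10a had by far the widest interval, -2.76 to 3.18.

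Of the 13 entries of the miR-23, miR-27 and miR-24 clusters 12 were higher in mid-myocardium, beside 52.5% of all miRNAs, and 6 were higher in all 3 hearts, beside 16.4%. The median log2 difference was 0.27, beside 0.03 over all 438, and 0 had an unadjusted p under 0.05. Of the 13 entries 10 were rat entries and the others miR-27 entries of other species, so the 13 are not independent. miR-23a had a log2 difference of 0.43, miR-27a 0.34, miR-23b 0.31 and miR-24 0.27, each higher in all 3 hearts, and miR-27a was at 0.13 without heart 7. In the miR-15 family 8 of 10 entries were higher, with the minor arms apart from each other: miR-322* did not overlap between layers and had a log2 difference of 0.33, while miR-195* was lower without overlap, at -0.76. Of the miR-17 and miR-106b clusters, which act in cell growth, miR-106b had 38.7, 43.8 and 55.1 RPMM against 26.7, 12.6 and 27.6, a log2 difference of 1.07. These levels were low, and the 10 entries of these clusters were evenly split, 5 higher and 5 lower, with a median of -0.04. The more abundant miR-25, at a mean of 1511 RPMM, had a log2 difference of -0.31.

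Minor arms differed in both directions. miR-423* had 754, 883 and 625 RPMM in mid-myocardium and 1070, 1222 and 946 in endocardium. It was lower in all 3 hearts without overlap, beside 4.79% of all miRNAs. Its log2 difference was -0.52 (SE 0.21). miR-30e* had 1454, 1466 and 1407 RPMM against 1926, 2707 and 1772, also without overlap, and a log2 difference of -0.54. miR-30a* had a log2 difference of -0.42. The smallest unadjusted p of all was for miR-425*, with 7.04, 3.98 and 3.80 RPMM against 18.3, 9.80 and 9.21, a log2 difference of -1.16. These levels were near those of a few reads. miR-423*, miR-30e* and miR-425* were picked by their p in these same libraries, so their agreement between hearts adds no support. Of 69 minor arms tested, 41 were lower and 28 higher, beside 208 and 230 of all 438. In all 3 hearts 12 were lower and 7 higher, beside 15.3% and 16.4% of all miRNAs. Without overlap 7 were lower and 4 higher, beside 4.79% and 5.25% of all miRNAs. Minor arms held 2.59% ± 0.43 of reads in mid-myocardium and 3.06% ± 0.15 in endocardium (exact two-sided permutation test, n = 3 against 3, p = 0.2, where the smallest possible is 0.1).

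Of 18 entries of other species that may be fragments of tRNA or rRNA, 16 were higher in mid-myocardium, beside 52.5% of all miRNAs, and 6 were higher in all 3 hearts, beside 16.4%. The median log2 difference was 0.33, beside 0.03, and 4 of the 18 had an unadjusted p under 0.05, beside 6.16%. Some of the 18 share a name across species, such as miR-720 of human and mouse, so they are not independent. Homo sapiens miR-1260a had 313, 259 and 298 RPMM in mid-myocardium and 114, 99.4 and 222 in endocardium, without overlap, and a log2 difference of 1.08. It was named for its small p in these same libraries, so the lack of overlap adds no support. Mus musculus miR-690 had 91.6, 139 and 315 RPMM against 25.3, 127 and 69.7, with mid-myocardium of heart 8 far above the rest. Mus musculus miR-5115 ranged from 1950 RPMM in endocardium of heart 6 to 23461 in mid-myocardium of heart 8, and its groups overlapped. The entry named Nasonia longicornis miR-125, which is no miR-125 of rat, had 45.8, 117 and 300 RPMM against 8.43, 99.4 and 71.0, the largest log2 difference among miRNAs with a mean of 100 RPMM or more, at 1.53. Glycine max MIR5678, a plant entry, had a log2 difference of 0.67.

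Below 100 RPMM, 4 further entries had small unadjusted p. Danio rerio miR-26b had 35.2, 25.2 and 26.6 RPMM in mid-myocardium and 18.3, 11.9 and 10.5 in endocardium, a log2 difference of 1.06. The entry shared by Homo sapiens miR-1260a and miR-1260b had a log2 difference of 1.06, Mus musculus miR-1928 one of 0.99 and Mus musculus miR-720 one of 0.90. All 4 were higher in mid-myocardium in each heart without overlap between layers, beside 5.25% of all miRNAs. They were picked by their p in these same libraries, so this agreement between hearts adds no support. Their levels were low, and in mid-myocardium of heart 6, 3 reads amount to 10.6 RPMM.

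**Figure D4:**
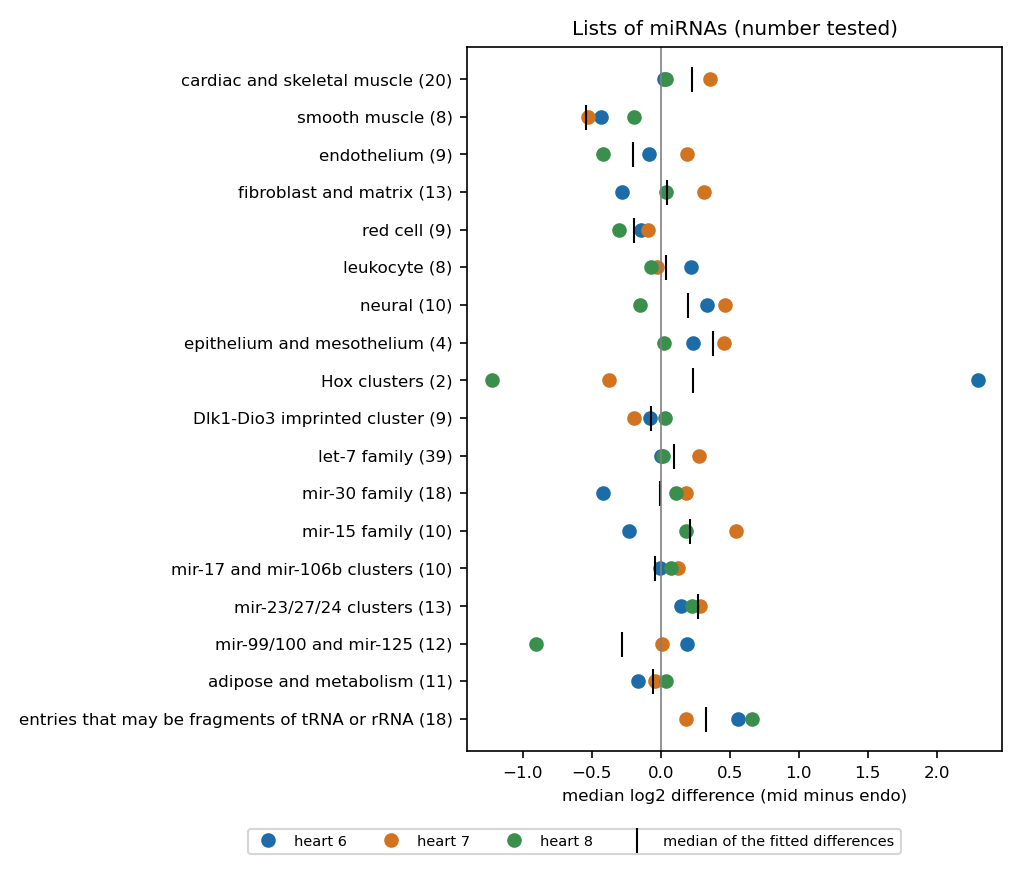
Median log2 difference, mid-myocardium minus endocardium, over each list of miRNAs, in each heart (coloured points) and over the fitted differences (black ticks), with the number of entries tested in brackets. Several lists had medians of one sign in all 3 hearts, above 0 (muscle, epithelium, let-7, miR-23/27/24, tRNA or rRNA fragments) or below 0 (smooth muscle, red cell). Some of these medians were close to 0, as for let-7 at 0.0026 in heart 6 and 0.0147 in heart 8. Most red cell entries were miR-486, also counted under muscle. The other red cell entries, miR-451, miR-144 and miR-144*, had log2 differences of 0.15, 0.66 and 0.34. The 2 Hox-cluster miRNAs ranged most widely between hearts.

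The remaining lists were mixed. Of 39 let-7 entries 21 were higher, of 18 miR-30 entries 8, of 10 neural entries 7, of 9 entries of the Dlk1-Dio3 cluster 4, of 11 adipose and metabolism entries 4 and of 4 epithelial entries 3. Of 13 fibroblast and matrix entries 7 were higher, of 9 red cell entries 4, of 10 entries of the miR-17 and miR-106b clusters 5 and of 12 miR-99, miR-100 and miR-125 entries 3. The last list held miRNAs for which the authors reported a significant qPCR difference between epicardium and endocardium, in hearts other than these. Of its 11 entries 7 were lower, 6 of them in all 3 hearts. Most of the 11 were entries of miR-486, which gave 5 of those 6. Of the other main arms, miR-21 and miR-10b were higher (0.05 and 0.26) and miR-99b was lower (-0.70). The miRNAs put to qPCR were picked from these samples, so the list is not independent evidence.

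Some abundant miRNAs differed more between single libraries than between layers. miR-10a, which lies in a Hox gene cluster, had 29064, 25697 and 3489 RPMM in mid-myocardium and 3830, 20187 and 21822 in endocardium. The low libraries were mid-myocardium of heart 8 and endocardium of heart 6, and the log2 difference for hearts 6, 7 and 8 was 2.92, 0.35 and -2.64. Without heart 6 the estimate turned from 0.21 to -1.15. miR-10b, of another Hox cluster, had 1208, 854 and 1562 RPMM against 378, 1829 and 1367, low in endocardium of heart 6 but not in mid-myocardium of heart 8.

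Libraries of heart 6 were low in miR-99b and miR-100. miR-99b had 2049, 7825 and 3681 RPMM in mid-myocardium and 1675, 10595 and 14135 in endocardium, lowest in both layers of heart 6. The log2 difference was -0.70 (SE 0.49) and came largely from heart 8, at -1.94. miR-100 had a log2 difference of -0.57 and miR-125a one of -0.39. A moderated F test of hearts called 0 of 438 miRNAs (0%), with 41 (9.36%) at an unadjusted p under 0.05 and a smallest adjusted p of 0.469, which 30 miRNAs shared. The 5 of these with the smallest unadjusted p were Homo sapiens miR-3676//miR-5100, Aegilops tauschii MIR172, Mus musculus miR-712, Homo sapiens miR-4492 and miR-144, each lower in both layers of heart 6 than in the other hearts. Homo sapiens miR-4492 and miR-144 had means of only 25.2 and 62.7 RPMM. In the shallow mid-myocardium library of heart 6, 3 reads amount to 10.6 RPMM. By edgeR 0 were called between hearts.

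**Figure D5:**
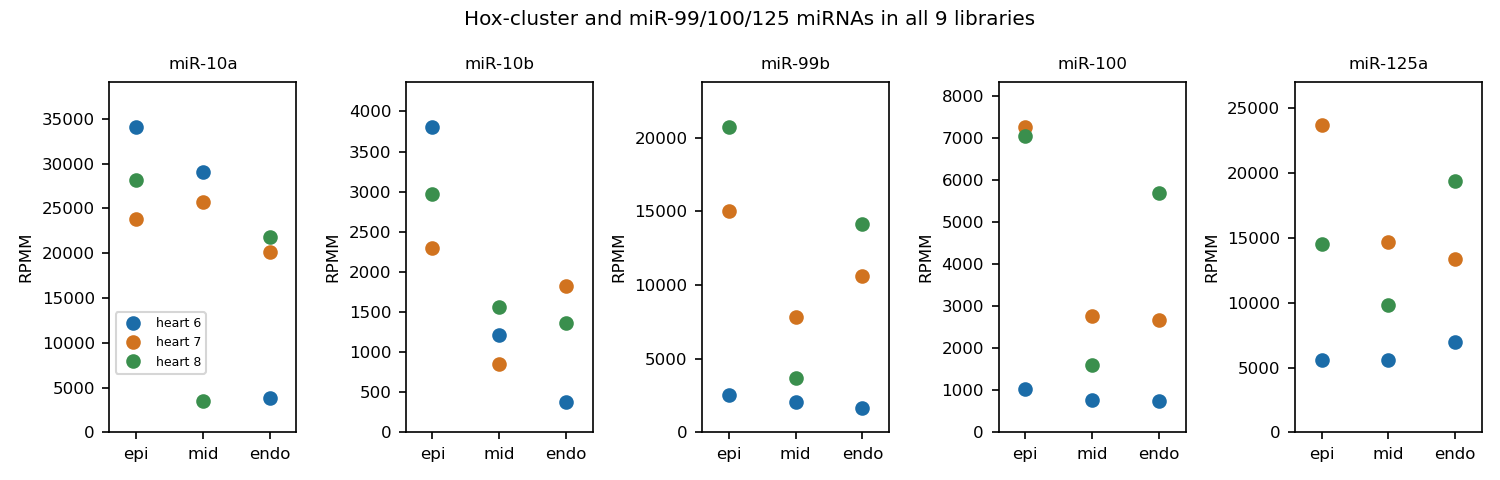
RPMM (linear axis from 0) of miR-10a, miR-10b, miR-99b, miR-100 and miR-125a in epicardium (epi), mid-myocardium (mid) and endocardium (endo), with 1 point for each heart. miR-10a was low in mid-myocardium of heart 8 (3489 RPMM) and endocardium of heart 6 (3830 RPMM), and miR-99b and miR-100 were low in all layers of heart 6.

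The isomiRs of a miRNA were compared as shares of its own reads. Of the 10 most abundant miRNAs, the share held by the leading read overlapped between layers in all but miR-133a. That read began at the second nt of the mature sequence and so had a shifted seed, and it made up 43.9%, 43.0% and 46.5% of miR-133a in mid-myocardium and 42.6%, 38.6% and 42.5% in endocardium (exact two-sided permutation test, n = 3 against 3, p = 0.1, the smallest possible, and adjusted p = 0.625 by Benjamini-Hochberg over 10 comparisons). The second commonest read of miR-133a, the mature sequence with 1 more nt at the 3′ end, had the unshifted seed. It held 35.8%, 36.4% and 37.7% against 36.6%, 40.8% and 38.2%, and the layers overlapped. The exact mature read of miR-133a held 5.56%, 5.86% and 3.74% against 5.77%, 7.37% and 5.07%. Shares that do not overlap always give p = 0.1 in this permutation test, and 1 of the 10 leading reads did so. Among lesser reads of the 10 miRNAs, the second of miR-22, the second of miR-486 and the third of miR-30a did not overlap either. Of 10 further miRNAs, chosen after their values were seen, the leading reads of miR-499, miR-29a and miR-145 did not overlap between layers, higher in mid-myocardium for miR-499 and miR-29a and lower for miR-145. Of miR-499 this read, the exact mature sequence, held 63.8%, 60.5% and 60.2% in mid-myocardium and 50.9%, 55.2% and 58.5% in endocardium (exact two-sided permutation test, n = 3 against 3, p = 0.1, adjusted p = 0.333 over the 10).

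Reads extended at one end and shortened at the other held 6.90% ± 1.07 of annotated reads in mid-myocardium and 5.10% ± 1.17 in endocardium (SD, n = 3, exact two-sided permutation p = 0.1). Without miR-133a these reads held 1.19% to 1.39% and 1.22% to 1.36%, and the layers overlapped.

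Taken singly, 0 of 562 sequences averaging 100 RPMM or more in one of the layers were called by limma (0%), with 42 (7.47%) at an unadjusted p under 0.05, and edgeR called 0 with 50. The smallest unadjusted p was for the shortened miR-23b read shown above, with 211, 149 and 207 RPMM in mid-myocardium and 122, 86.8 and 107 in endocardium, a log2 difference of 0.84. The largest difference was for the miR-181a read of 21 nts shown above, which lacks the first 2 nts of the mature sequence. Endocardium of heart 7 had 735 RPMM of it, and the other 5 libraries had 0 to 10.6 RPMM. The read of 20 nts had 499 RPMM in that library and between 1.41 and 5.31 in the others, so both differences rested on 1 library. miR-181a as a whole had 35920 RPMM there and 19610 to 34008 in the others.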

How the data were processed

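Small RNA of 3 layers of 3 rat left ventricles was made into TruSeq libraries and sequenced by the authors, then trimmed and aligned to miRBase in CLC Genomics Workbench, allowing up to 2 mismatches. The deposited annotated sequences are RPM (RPMM) over the annotated reads of each library. The authors also deposited a grouped table, whose signal is normalised reads per miRNA, and the raw count of unannotated sequences seen 10 or more times in all. Whole reads were recovered from the RPM values: 100% of 125689 values were whole within 0.001 read.

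Reads were summed by species, name and arm, and entries reaching 10 reads in any of the 6 libraries were kept. Reads labelled as precursor carry no * and were summed with the main arm, so an entry may hold both arms. Layers were compared with limma 3.58.1 (lmFit, eBayes; R 4.3.3) on log2(RPMM + 1), with heart as a block and Benjamini-Hochberg adjustment at 0.05. A log2 difference on this scale understates changes of low miRNAs. The pairing comes from the animal: both layers of a heart number are from 1 rat, and the correlations of their deviations from the layer means were 0.38, 0.17 and 0.05 for hearts 6, 7 and 8. Between layers of different hearts they ran from -0.31 to 0.24, a range that holds the values of hearts 7 and 8. edgeR 4.0.16, DESeq2 1.42.0 and Baggerley's test on the recovered reads were alternatives. Single shares had exact permutation tests, in which 3 libraries against 3 cannot give a p below 0.1, and swaps within hearts none below 0.25. Scripts were tested on simulated data. Intervals cover the spread between hearts, and read limits cover counting error only.

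Named miRNAs were those called, the smallest unadjusted p (10 at a mean of 100 RPMM or more, 5 below), the 10 most abundant, the 5 highest and 5 lowest differences of one sign in all hearts, list members of 100 RPMM or more (some given only in counts), and the 5 smallest adjusted p between hearts, ties broken by unadjusted p. Those picked by p or by one sign in all hearts were picked in these same libraries, so their agreement between hearts adds no support. miR-106b, miR-195*, miR-143* and miR-499* were named after their values were seen, and the isomiR shares were added then too. The comparison, members and lists were chosen with earlier results of these data known.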

Additional observations from a re-analysis of the deposited data

How the results depend on the processing

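In every alternative run, 0 miRNAs and 0 single sequences were called between layers, by limma, edgeR, DESeq2 and Baggerley's test. In simulated data Baggerley's test with adjustment rarely recovered even large changes, so its 0 carries little weight. That simulation changed many miRNAs and held no difference between hearts, so it does not give the power of limma here. Each heart gave both layers; with no replicate block 0 miRNAs were called and those at an unadjusted p under 0.05 went from 27 to 16 (edgeR 17, Baggerley 11), and sequences from 42 to 17. That number was 17 by DESeq2 with the block, 106 of 1768 with no filter and 14 of 169 exact mature sequences. Leaving out 1 heart gave 20 to 26 miRNAs and 25 to 57 sequences. Between hearts, scaling to annotated plus unannotated reads, an alternative chosen after seeing the data, called 6 miRNAs in place of 0. Other scalings moved the median difference of all miRNAs from 0.03 to between -0.07 and 0.11.

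Of 60 named miRNAs 43 kept their direction in all alternatives. The log2 differences of the others changed sign as follows, and the cause was not tested. With the rat total, miR-30a was -0.014, miR-27b -0.056 and miR-21 -0.045. With the total without miR-486, also chosen after seeing the data, they were -0.017, -0.059 and -0.048. Leaving out 1 heart at a time gave -0.53 to 0.017 for miR-181a, -0.28 to 0.076 for miR-378, -0.054 to 0.12 for miR-27b, -0.040 to 0.26 for miR-30d, -0.68 to 0.059 for miR-3676//miR-5100, -0.76 to 0.16 for MIR172, -0.35 to 0.11 for miR-208b, -0.0848 to 0.15 for miR-21, -1.15 to 1.64 for miR-10a, -0.45 to 0.93 for miR-10b, -0.89 to 0.054 for miR-100, -0.32 to 0.62 for miR-145*, -0.18 to 0.34 for miR-451 and -0.15 to 0.15 for miR-208*. edgeR with no replicate block gave 0.18 for miR-3676//miR-5100, 0.32 for MIR172 and -0.017 for miR-10b, and with the block 0.088 for MIR172. Baggerley's test gave 0.14 for miR-3676//miR-5100 and 0.22 for MIR172. A pseudocount of 10 gave 0.0078 for MIR172, and annotated plus unannotated reads gave 0.012 for miR-208b. On exact mature sequences miR-199a was -0.52, miR-21 -0.040, miR-125a 0.079 and miR-208* -0.046. miR-208*, at 0.0058, was also -0.0037 with DESeq2 size factors, -0.088 with the rat total, -0.091 without miR-486, -0.0054 by edgeR with the block and -0.0085 by DESeq2.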

Other observations

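The epicardium of the same hearts, which entered neither side of the comparison, gives a second neighbour for the mid-myocardium. miR-10b had 3804, 2300 and 2970 RPMM in epicardium of hearts 6, 7 and 8, above all 6 libraries of the other layers, of which the highest had 1829. For miR-133a the epicardium of heart 8 had 46623 RPMM, below all 3 endocardium libraries, while hearts 6 and 7 had 98728 and 92804. The same library was high in miR-30e*, with 2700 RPMM. These values were not tested here.

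The miR-181a reads that lack the first 2 nts were as rare in epicardium as in mid-myocardium, at 4.29 to 7.45 RPMM for the read of 21 nts, so 1 of 9 libraries held nearly all of them.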
